A study of Mus musculus with 12 samples.

Results

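The genes described here are Acod1, Nos2, Gch1, Slc7a2, Ass1, Arg1, Arg2 and Sod2, which make itaconate and nitric oxide, handle arginine, or remove mitochondrial superoxide. They were chosen by name, with earlier results of these data known, and are 8 of the 55335 genes listed in each library. The libraries are bulk RNA-seq of bone marrow-derived dendritic cells (BMDCs) of C57BL/6 mice. The mice carried the CreER transgene, described in the study's methods as Rosa26-CreER, which all 4 groups therefore share, and had an intact Ctcf gene (WT). Marrow was cultured with GM-CSF for 6 days with a medium change every 2 days, and the methods describe bead selection of floating CD11c+ cells from mice of both sexes. The methods also describe 4-hydroxytamoxifen from the first day for Ctcf deletion, and whether these cultures received it is not given in the labels. The groups were WT, WTL (lipopolysaccharide, LPS, at 100 ng/ml for 3 h), WT + JSH23 (JSH-23 at 100 µM for 3 h) and WTL + JSH23 (JSH-23 and then LPS), each with 3 libraries. LPS is a cell-wall component of Gram-negative bacteria that is sensed by TLR4, and JSH-23 is a small molecule that blocks nuclear entry of the NF-κB subunit RelA. A solvent control for WT and WTL is not named in the labels, so the effect of JSH-23 and that of its solvent cannot be told apart. The methods describe 3 biological replicates per condition. The labels do not say whether these came from separate mice, and p-values then measure the spread between these libraries.

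Activated macrophages and dendritic cells reroute mitochondrial and arginine metabolism. Acod1 (also Irg1) encodes the enzyme that makes itaconate from the citric acid cycle intermediate cis-aconitate. Nos2 encodes the inducible nitric oxide synthase, which turns arginine into nitric oxide and citrulline and needs tetrahydrobiopterin, whose synthesis starts with the product of Gch1. Slc7a2 encodes the cationic amino acid transporter CAT2, which brings in arginine, and Ass1 encodes argininosuccinate synthase, which starts the remaking of arginine from citrulline. The arginases Arg1 (cytosolic) and Arg2 (mitochondrial) split arginine into ornithine and urea. Ornithine feeds polyamine synthesis. Sod2 encodes the manganese superoxide dismutase of mitochondria.

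Promoter sequence is shown for the 4 genes matched by symbol in the RefSeq promoter table (build GRCm38.p6). Nos2, Slc7a2, Arg1 and Arg2 were not in it. Of the genes shown, Acod1, Gch1 and Sod2 rose with LPS and Ass1 did not. The sequences run 5′ to 3′ on the strand of the gene and stop before the first base of the main GENCODE transcript. Capitals mark a match to the NF-κB site. Acod1 is shown for chr14:103046762-103046976 (plus strand), Gch1 for chr14:47189414-47189663 (minus strand), Sod2 for chr17:13007589-13007816 (plus strand) and Ass1 for chr2:31470020-31470206 (plus strand).
Acod1: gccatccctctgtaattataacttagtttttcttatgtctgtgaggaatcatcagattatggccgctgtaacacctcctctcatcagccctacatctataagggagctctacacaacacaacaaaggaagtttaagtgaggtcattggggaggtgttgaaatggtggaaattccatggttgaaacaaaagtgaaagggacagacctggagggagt
Gch1: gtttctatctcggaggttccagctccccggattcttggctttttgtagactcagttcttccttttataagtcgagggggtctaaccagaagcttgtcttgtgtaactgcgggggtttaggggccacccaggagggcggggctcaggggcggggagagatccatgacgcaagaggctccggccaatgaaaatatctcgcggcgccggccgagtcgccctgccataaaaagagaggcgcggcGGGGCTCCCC
Sod2: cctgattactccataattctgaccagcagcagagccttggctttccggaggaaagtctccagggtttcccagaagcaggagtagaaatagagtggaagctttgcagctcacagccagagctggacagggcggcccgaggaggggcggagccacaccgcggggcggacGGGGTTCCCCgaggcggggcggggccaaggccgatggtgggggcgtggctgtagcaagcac
Ass1: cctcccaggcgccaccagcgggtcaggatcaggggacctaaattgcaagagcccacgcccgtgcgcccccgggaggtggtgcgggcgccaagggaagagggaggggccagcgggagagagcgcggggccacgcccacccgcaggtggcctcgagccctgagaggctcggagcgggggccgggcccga

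In the 250 bases before the RefSeq start, Gch1 held 1 match to the NF-κB site, GGGGCTCCCC, from 10 to 1 bases before the start. Sod2 held 1, GGGGTTCCCC, from 83 to 74 bases before the start. Sod2 also held TTCCCAGAA, a match to the STAT-binding GAS letters TTCNNNGAA, from 185 to 177 bases before the start. No match to any of the 8 motifs searched was found in the windows of Acod1 and Ass1. Both strands were searched. Of 32851 promoters in the table, 7.25% held the NF-κB site and 7.02% the GAS letters. The other motifs were the interferon-stimulated response element core (2.98% of promoters), AP-1 TGANTCA (6.75%), CRE TGACGTCA (1.55%), the antioxidant response element core TGANNNNGC (35.2%), C/EBP-ATF TTGCATCA (0.791%) and C/EBP TTGCNNAA (9.56%). The GAS and NF-κB letters can overlap each other, and did not in Sod2. These matches describe letters in the window and are not evidence of binding, and a missing match is not evidence of its absence. By ChIP-seq, the study reported RelA binding at the Acod1 promoter in LPS-stimulated WT cells.

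Total expected counts per library ran from 24664724 to 34837847, and replicate libraries differed by more than counting noise, so none was counted as a copy. WTL + JSH23 replicate 3 stood apart, with a chi-square per gene of 8.19 and 9.12 against the other libraries of its group, where all other replicate pairs had 2.32 to 4.50. Leaving it out raised the number of the genes described here whose LPS change differed with JSH-23 (adjusted p under 0.05) from 3 to 6. Scaling factors (TMM) were 0.859 to 0.956 in the libraries with LPS and 1.08 to 1.121 in those without it. An LPS rise is therefore larger in CPM, the counts scaled to a common library size with these factors, than in the deposited TPM. Itgax, which encodes CD11c, was at 236 to 331 TPM, and H2-Ab1, an MHC class II chain, at 3257 to 3971 TPM, so both were present. Levels in the dendritic cell marker list were uneven. They ran from Flt3 at 2.34 to 3.42 TPM, through Dpp4 at 11.1 to 26.2 and Zbtb46 at 21.3 to 43.7, to Cd74 at 12317 to 14374. Macrophage markers were present too, with Csf1r at 218 to 508 TPM and C1qb at 489 to 1025 TPM. The 12 macrophage markers summed to 2986 to 3107 TPM in WT, 2496 to 2651 in WTL, 1922 to 2006 in WT + JSH23 and 1615 to 1716 in WTL + JSH23, with Vsig4 at 0 in all 12 libraries. The 12 neutrophil markers summed to 384 to 396, 332 to 345, 332 to 357 and 279 to 299 TPM in the same order, with Ly6g at no more than 1.03 TPM. Lymphocyte markers summed to at most 6.57 TPM, mast cell, basophil and eosinophil markers to at most 8.06 TPM, and erythroid markers to at most 0.46 TPM. In bulk RNA, fewer cells of a type and less RNA per cell cannot be told apart, and the part of these marker sums in the results below was not tested.

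**Figure D1:**
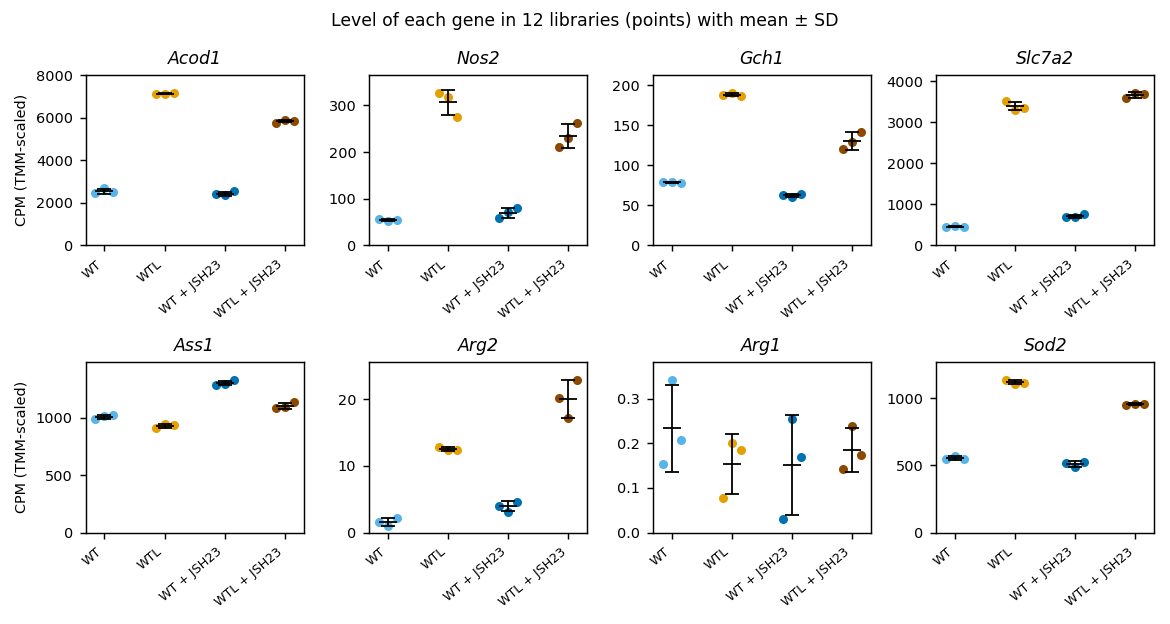
TMM-scaled counts (CPM) of each gene, with 1 panel per gene, the 4 groups on the x axis, 1 point per library, and the bar and whiskers giving mean ± SD of 3 libraries. Acod1 sits at 2347 to 2684 CPM without LPS and 5769 to 7166 CPM with it, Ass1 is highest in WT + JSH23, and Arg1 reaches at most 0.341 CPM with overlapping groups.

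To ask how LPS changed these genes, WTL was compared with WT. Calls needed a change past 2-fold together with an adjusted p under 0.05, from the quasi-likelihood F-test of edgeR over 14357 genes. Of the 8 genes, 7 passed the filter on low counts and Arg1 did not. Acod1, Nos2, Gch1, Slc7a2, Arg2 and Sod2 were called higher, 6 of the 7 tested, where 7.36% of all genes were called higher and 9.09% lower. Since earlier results were known when the genes were chosen, this contrast is a description only. Ass1 was lower with an adjusted p under 0.05 and by less than 2-fold. Without the fold requirement 31.0% of all genes were higher and 34.7% lower. With JSH-23 present in both groups, Acod1, Nos2, Gch1, Slc7a2 and Arg2 were called higher by LPS, beside 5.85% of all genes called higher and 4.49% lower. Sod2 then rose by less than 2-fold and Ass1 again fell, so that 6 genes were higher and 1 lower without the fold requirement, beside 27.4% and 27.1% of all genes. The libraries compared did not overlap for any of the 7 genes in either LPS comparison, but this also held for 69.9% of all genes tested without JSH-23 and 59.1% with it. The balance of calls over all genes moved with the scaling. In limma on log2(TPM + 0.1), 613 of 2734 calls were higher without JSH-23, against 1056 higher and 1305 lower here. With JSH-23 543 of 1413 were higher, against 840 higher and 644 lower.

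To ask what JSH-23 did to the LPS-stimulated state, WTL + JSH23 was compared with WTL. None of the 7 genes was called past 2-fold by edgeR or DESeq2, beside 3.75% of all genes called higher and 3.25% lower. At an adjusted p under 0.05 alone, Acod1, Nos2, Gch1 and Sod2 were lower and Slc7a2, Ass1 and Arg2 were higher, beside 24.2% of all genes lower and 24.5% higher. Expressed as the mean CPM of WTL + JSH23 in percent of that of WTL, the order was Gch1 at 69.3%, Nos2 at 76.4%, Acod1 at 81.6%, Sod2 at 85.5%, Slc7a2 at 108%, Ass1 at 119% and Arg2 at 160%. Without LPS, JSH-23 gave 1 call past 2-fold, Arg2 higher, beside 2.43% of all genes called higher and 2.94% lower. At an adjusted p under 0.05 alone, Nos2, Slc7a2, Ass1 and Arg2 were higher and Gch1 and Sod2 lower, beside 18.8% higher and 22.1% lower among all genes. WT + JSH23 in percent of WT was 79% for Gch1, 91.8% for Sod2, 95.6% for Acod1, 129% for Ass1, 130% for Nos2, 155% for Slc7a2 and 245% for Arg2. Nos2 was thus the member that was higher with JSH-23 in unstimulated cells and lower with it in LPS-stimulated cells.

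The interaction, the LPS change with JSH-23 minus that without it on the log2 scale, asks whether the LPS change itself differed. It was below 0 for all 7 genes tested (Ass1 was at 0.01 in limma on log2(TPM + 1)). For Ass1, which fell with LPS, a value below 0 means a larger fall with JSH-23, and for the others a smaller log2 rise. The interaction passed an adjusted p under 0.05 for 3 genes, Acod1, Nos2 and Slc7a2, beside 8.44% of all genes that passed below 0 and 9.54% above 0. The interactions of Arg2, Gch1, Ass1 and Sod2 missed the threshold, with adjusted p values of 0.0597, 0.0589, 0.0959 and 0.180. With DESeq2, Arg2, Gch1 and Ass1 passed as well, giving 6 genes, and the same 3 also passed without WTL + JSH23 replicate 3. Without WT + JSH23 replicate 2, Arg2 and Gch1 passed, giving 5 genes, and with upper quartile scaling Gch1 passed (adjusted p = 0.0462), giving 4. Every group enters more than 1 of the 5 comparisons, so they share libraries.

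**Figure D2:**
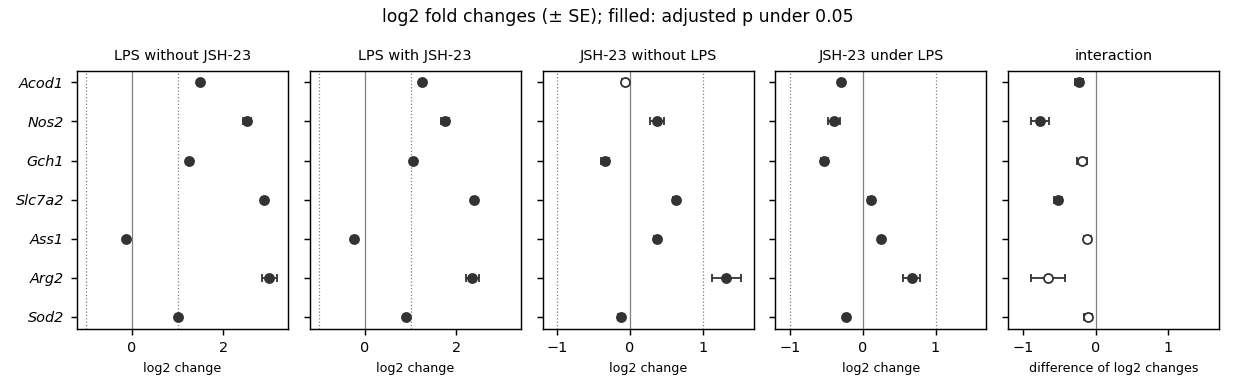
Log2 fold change (x axis) of the 7 genes tested (y axis) in 4 comparisons of groups and, in the right panel, the difference between the LPS changes with and without JSH-23. Whiskers are ± SE, filled points passed an adjusted p under 0.05 and dotted lines mark 2-fold. The LPS changes lie above 0 except for Ass1, and the JSH-23 changes lie on both sides of 0.

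Acod1 (ENSMUSG00000022126.6, chr14:103046977-103056573, plus strand) was among the most abundant transcripts of these cells. The 3 WT libraries had 2450, 2684 and 2492 CPM and the 3 WTL libraries 7128, 7103 and 7166 CPM. WT + JSH23 had 2405, 2347 and 2534 CPM, and WTL + JSH23 had 5769, 5865 and 5830 CPM. The libraries with LPS were far above those without, and the JSH-23 libraries under LPS lay below all WTL libraries. LPS raised Acod1 by 1.49 ± 0.0382 (SE) on the log2 scale without JSH-23, a 2.81-fold change (adjusted p = 2.03e-18), and by 1.26 ± 0.038 with JSH-23 (adjusted p = 5.65e-17). JSH-23 lowered the LPS-stimulated level by a log2 change of -0.29 ± 0.0374 (adjusted p = 1.14e-06), and in unstimulated cells the change was -0.07 ± 0.0375 with overlapping groups (adjusted p = 0.177). The interaction was -0.23 ± 0.053 (adjusted p = 0.00473). It missed the threshold when limma was run on the deposited TPM, at -0.10 (adjusted p = 0.218). By TPM, Acod1 ranked 61 to 69 among all genes in WT, 26 to 29 in WTL, 71 to 73 in WT + JSH23 and 31 to 32 in WTL + JSH23.

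Nos2 (ENSMUSG00000020826.9, chr11:78920787-78960254, plus strand) ranked 4809 to 4979 by TPM among all genes in WT and 1296 to 1479 in WTL. WT libraries had 56.02, 52.8 and 53.1 CPM and WTL libraries 327, 317 and 276 CPM. WT + JSH23 libraries had 58.8, 70.9 and 80.4 CPM and WTL + JSH23 libraries 211, 231 and 261 CPM. The spread within the JSH-23 groups was wide for this gene, but no 2 groups overlapped. LPS raised it 5.68-fold without JSH-23 (log2 2.51 ± 0.0889 SE, adjusted p = 4.53e-16) and 3.35-fold with it (log2 1.75 ± 0.0871, adjusted p = 2.81e-13). JSH-23 changed it by a log2 of -0.39 ± 0.0815 under LPS (adjusted p = 0.000426) and by 0.37 ± 0.0909 without LPS (adjusted p = 0.00219). The interaction of -0.76 ± 0.122 (adjusted p = 0.000162) was the farthest from 0 among the 7 genes. In CPM, LPS added 253 without JSH-23 and 164 with it.

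Gch1 (ENSMUSG00000037580.10, chr14:47153895-47189413, minus strand), which supplies the cofactor of Nos2, was lower with JSH-23 in both states. WT libraries had 79.0, 79.6 and 78.3 CPM, and WT + JSH23 libraries 62.5, 60.2 and 64.3 CPM. WTL libraries had 188, 191 and 187 CPM, and WTL + JSH23 libraries 120, 130 and 142 CPM. All 4 groups were separate, and the spread was widest in WTL + JSH23. The log2 change with LPS was 1.25 ± 0.0477 (SE) without JSH-23 (adjusted p = 1.45e-15) and 1.06 ± 0.0492 with it (adjusted p = 7.75e-14). With JSH-23 the log2 change was -0.53 ± 0.0468 under LPS (adjusted p = 4.65e-09) and -0.34 ± 0.0496 without (adjusted p = 8.32e-06), the lowest of the 7 genes in both. On the deposited TPM the LPS changes were 0.91 and 0.84 on the log2(TPM + 1) scale, under 2-fold, and with upper quartile scaling the change with JSH-23 was 0.98, also under 2-fold. The pseudogenes Gm49134 and Gm18811 that overlap Gch1 had at most 7 and 3 counts in a library.

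Slc7a2 (ENSMUSG00000031596.15, chr8:40862396-40922308, plus strand) was raised by LPS in both settings and by JSH-23 alone. WT libraries had 448, 474 and 449 CPM and WTL libraries 3512, 3310 and 3355 CPM. WT + JSH23 libraries had 683, 684 and 753 CPM and WTL + JSH23 libraries 3580, 3717 and 3699 CPM. The lowest WTL + JSH23 library lay only just above the highest WTL library. LPS raised Slc7a2 7.42-fold without JSH-23 (log2 2.89 ± 0.0438 SE, adjusted p = 4.57e-22) and 5.19-fold with it (log2 2.38 ± 0.0428, adjusted p = 1.07e-20). JSH-23 alone raised it by a log2 of 0.63 ± 0.0413 (adjusted p = 5.64e-11). Under LPS the JSH-23 change was 0.11 ± 0.0406 (adjusted p = 0.0271), and it missed the threshold with DESeq2 (adjusted p = 0.0722), without WTL + JSH23 replicate 2 (0.0759), without WTL replicate 5 (0.112) and without WTL replicate 6 (0.0734). The interaction was -0.52 ± 0.0578 (adjusted p = 3.19e-06). The same data in CPM gave an LPS rise of 2935 without JSH-23 and 2959 with it, so the smaller log2 change with JSH-23 stood beside a higher unstimulated level and near-equal added CPM.

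Slc7a2 has 5 annotated transcripts, and the mean transcript length that RSEM weights by abundance differed between groups. It was 6566 to 6615 bases in WT, 6788 to 6830 in WTL, 6392 to 6508 in WT + JSH23 and 6745 to 6967 in WTL + JSH23. The groups with LPS therefore had more of the estimated abundance on long transcripts than the groups without it, among coding transcripts that run from 519 to 7910 bases. No test was made on these lengths, which are estimates.

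**Figure D3:**
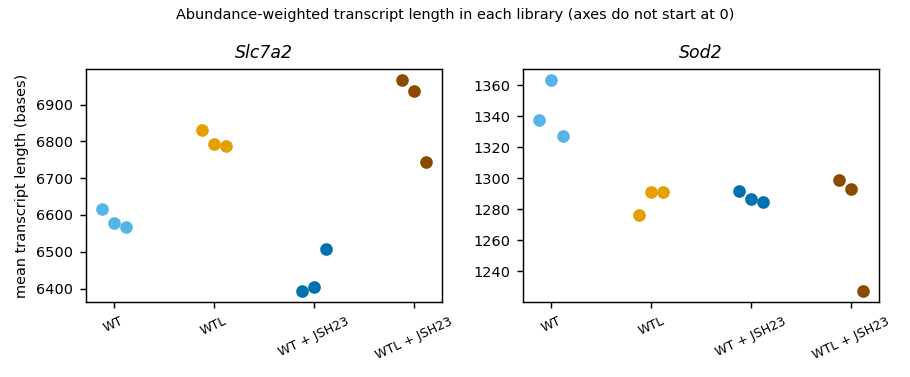
Abundance-weighted mean transcript length in bases (y axis, not starting at 0) in each of 12 libraries by group (x axis) for Slc7a2 and Sod2. Slc7a2 libraries with LPS lie above those without it, and WT libraries of Sod2, at 1327 to 1364 bases, lie above the other groups.

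Ass1 (ENSMUSG00000076441.9, chr2:31470207-31520672, plus strand) moved opposite to the other genes with LPS. WT libraries had 991, 1020 and 1022 CPM and WTL libraries 912, 942 and 936 CPM. WT + JSH23 libraries had 1289, 1294 and 1329 CPM and WTL + JSH23 libraries 1084, 1098 and 1136 CPM. All libraries with JSH-23 lay above all libraries without it. LPS lowered Ass1 by a log2 change of -0.12 ± 0.0336 (SE) without JSH-23 (adjusted p = 0.00342) and of -0.24 ± 0.0335 with it (adjusted p = 3.73e-06). The same changes on the log2(TPM + 1) scale were -0.46 and -0.45, where no TMM scaling applies. JSH-23 raised Ass1 by 0.37 ± 0.0335 without LPS (adjusted p = 1.06e-08) and by 0.25 ± 0.0336 with LPS (adjusted p = 2.3e-06). Ass1 had fractional expected counts in all 12 libraries, so RSEM divided some of its reads with other features.

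The arginases differed in level and response. Arg2 (ENSMUSG00000021125.6, chr12:79130777-79156301, plus strand) had 1.59, 1.02 and 2.17 CPM in WT and 12.9, 12.4 and 12.4 CPM in WTL. It had 3.96, 3.15 and 4.63 CPM in WT + JSH23 and 20.2, 17.2 and 22.9 CPM in WTL + JSH23. Each group lay apart from the next, with WTL + JSH23 highest. LPS raised Arg2 8.01-fold without JSH-23 (log2 3.00 ± 0.168 SE, adjusted p = 1.12e-12) and 5.10-fold with it (log2 2.35 ± 0.137, adjusted p = 3.78e-12). JSH-23 raised it 2.50-fold without LPS (log2 1.33 ± 0.2, adjusted p = 1.28e-05) and 1.59-fold under LPS (log2 0.67 ± 0.118, adjusted p = 6.36e-05). The WT level rests on 36.1 to 63.2 expected counts per library. The interaction of -0.65 ± 0.235 missed the threshold (adjusted p = 0.0597) and passed it with DESeq2 (adjusted p = 0.0151) and without WT replicate 6 (log2 -0.92, adjusted p = 0.0146). In CPM, LPS added 11.0 to Arg2 without JSH-23 and 16.2 with it, beside a higher unstimulated level with JSH-23.

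Arg2 overlaps 285 bases of Vti1b, a protein-coding gene on the opposite strand, and 997 bases of the antisense gene Gm48780, and it had fractional expected counts in all 12 libraries. The methods describe strand-specific libraries, but the strand setting of the counting is not given in the sources used here. Reads in the shared bases may therefore have been given to either gene. Vti1b lay at 37.8 CPM in WT, 45.7 in WTL, 41.8 in WT + JSH23 and 46.1 in WTL + JSH23, with a log2 change of 0.28 with LPS and 0.01 with JSH-23 under LPS. Gm48780 had at most 9 counts in a library.

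Arg1 (ENSMUSG00000019987.9, chr10:24915221-24927484, minus strand) is the arginase of alternatively activated macrophages and was barely detected. WT libraries had 5, 12 and 6 counts, WTL libraries 2, 6 and 4, WT + JSH23 libraries 1, 7 and 5, and WTL + JSH23 libraries 4, 6 and 4. The groups overlapped. All 12 libraries together held 62 counts, with an exact Poisson interval of 47.5 to 79.5 that covers counting error only, beside 3007 counts of Arg2 and 53217 of Nos2. When the filter on low counts was left out, the edgeR adjusted p for Arg1 was between 0.547 and 0.915 over the 5 comparisons, and no change was detectable at this depth.

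Sod2 (ENSMUSG00000006818.5, chr17:13006846-13040063, plus strand) was raised by LPS close to the 2-fold threshold. WT libraries had 545, 571 and 550 CPM and WTL libraries 1136, 1105 and 1118 CPM. WT + JSH23 libraries had 518, 486 and 527 CPM and WTL + JSH23 libraries 952, 961 and 959 CPM. Like Ass1 and Arg2, Sod2 had fractional expected counts in all 12 libraries. The groups did not overlap. The log2 change with LPS was 1.01 ± 0.0364 (SE) without JSH-23 (adjusted p = 5.65e-16) and 0.91 ± 0.0364 with it (adjusted p = 6.83e-15). Without WT replicate 4 the first of these was 0.998, just under 2-fold, with upper quartile scaling it was 0.93, and on the log2(TPM + 1) scale both were under 2-fold, at 0.75 and 0.72. JSH-23 gave -0.23 ± 0.036 under LPS (adjusted p = 2.05e-05) and -0.12 ± 0.0362 without LPS (adjusted p = 0.00918). Both JSH-23 changes missed the threshold on the log2(TPM + 1) scale, at -0.08 (adjusted p = 0.0585) and -0.06 (adjusted p = 0.236), and the change without LPS also did so without WT + JSH23 replicate 2 (-0.09, adjusted p = 0.0648).

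Levels of different genes were compared per length, in TPM. In WT the order was Acod1 at 1731 TPM, Ass1 at 1153, Sod2 at 822, Slc7a2 at 117, Gch1 at 50.1, Nos2 at 22.1, Arg2 at 2.20 and Arg1 at 0.327, and no neighbours in this order overlapped. WT + JSH23 had the same order, also without overlap. In WTL, Sod2 at 1381 TPM stood above Ass1 at 837, Slc7a2 reached 665, and Nos2 (92.1 to 106 TPM) and Gch1 (94.0 to 96.5 TPM) overlapped. In WTL + JSH23 the order was the same as in WTL, with Nos2 at 75.8 to 91.7 TPM and Gch1 at 66.9 to 77.0 TPM overlapping again. Within a library the Acod1 to Nos2 ratio of TPM went from 72.7 to 84.4 in WT to 36.2 to 43.1 in WTL, and lay at 52.4 to 68.0 in WT + JSH23 and 37.0 to 45.5 in WTL + JSH23.

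The place of Sod2 depends on the transcript length used. RSEM gave it a mean length of 1227 to 1364 bases although its longest annotated coding transcript has 5861 bases, so that much of its estimated abundance was on shorter transcripts, which run down to 334 bases. When CPM was divided by the length of the first-listed coding transcript of each gene, a choice made after the data were seen, Sod2 was at 93.1 to 97.5 CPM per kb in WT and 188 to 194 in WTL. Slc7a2 was at 56.6 to 59.9 in WT and 418 to 444 in WTL, above Sod2, and in WT + JSH23 they overlapped, at 86.3 to 95.2 for Slc7a2 and 82.9 to 89.9 for Sod2. Ass1, at 537 to 556 in WTL, then stayed above Sod2. Acod1, at 934 to 1023 CPM per kb in WT and 2708 to 2732 in WTL, was first by both measures.

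**Figure D4:**
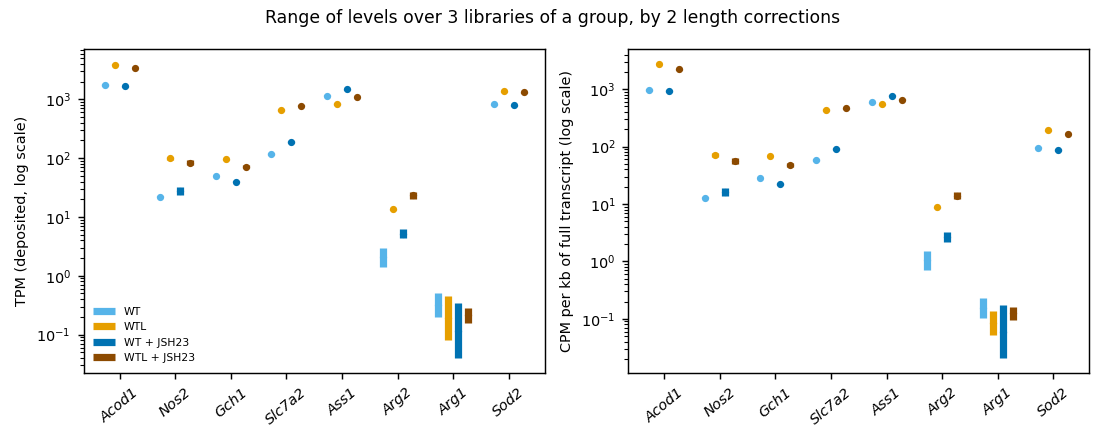
Level of the 8 genes (x axis) as deposited TPM (left) and as CPM per kb of the first-listed coding transcript (right), both on log axes, with 1 bar per group from the lowest to the highest of 3 libraries and a point at the middle. Acod1 is highest and Arg1 lowest in both panels, and Sod2 lies above Slc7a2 in TPM but below it in CPM per kb in both groups with LPS.

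The genes whose log2 CPM over the 12 libraries was most like that of each member were taken from 8036 protein-coding genes. The members themselves, predicted or numbered gene models and genes under 10 CPM in their highest group were left out. Members also correlated with each other, as Acod1 and Sod2 did with r of 0.998. The libraries fall into 4 groups and share their group differences, so these correlations are a description only. Acod1 was closest to Clic4 and Sh2d4a (Pearson r 0.999 and 0.998). Nos2 was closest to Pim1 and Rfk (0.998 and 0.996), Gch1 to Ehd1 and Lad1 (both 0.998), Slc7a2 to Cxcl1 and Usp53 (both 0.999) and Sod2 to Ccl3 and Rrs1 (0.999 and 0.998). Ass1 was closest to Ctsd and Retreg2 (0.987 and 0.984), and Arg2 to Znrf1 and Irs2 (0.987 and 0.986).

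Other genes of arginine, urea cycle and polyamine metabolism numbered 28, of which 23 were tested. With LPS alone 7 were higher and 7 lower (31.0% and 34.7% of all genes), and with LPS in the presence of JSH-23 5 were higher and 7 lower (27.4% and 27.1%), with medians of -0.08 and -0.01 beside -0.05 and -0.02 over all genes (log2). With JSH-23 10 were higher and 1 lower without LPS (18.8% and 22.1% of all genes), and 8 were higher and 3 lower under LPS (24.5% and 24.2%), with medians of 0.14 and 0.15 beside -0.01 and 0.02 over all genes. The largest JSH-23 changes were those of Odc1, ornithine decarboxylase, which makes the first polyamine, at 1.63 ± 0.0564 (SE) on the log2 scale without LPS (adjusted p = 2.64e-15) and 1.46 ± 0.0554 under LPS (adjusted p = 8.37e-15). Odc1 had a mean of 26.6 CPM in WT, 38.2 in WTL, 82.5 in WT + JSH23 and 106 in WTL + JSH23. Slc7a1, the constitutive cationic amino acid transporter CAT1, rose with JSH-23 by 1.22 ± 0.0719 without LPS and 1.38 ± 0.0684 under LPS, and with LPS by 0.73 without JSH-23 and 0.89 with it. Its means were 27.0, 44.9, 63.0 and 117 CPM in WT, WTL, WT + JSH23 and WTL + JSH23. Slc3a2, the heavy chain of several amino acid transporters, rose with JSH-23 by 0.72 without LPS (adjusted p = 1e-08) and 0.53 under LPS (adjusted p = 7.58e-07). With LPS it rose by 0.62 without JSH-23 and 0.42 with it.

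Aldh18a1, which makes the proline and ornithine precursor from glutamate, was among the genes that differed in the interaction. It fell with LPS by a log2 change of -1.01 ± 0.11 (SE) without JSH-23 and of -0.46 ± 0.0942 with it, an interaction of 0.55 ± 0.146 (adjusted p = 0.0113). Under LPS it was higher with JSH-23 by 1.08 ± 0.112, at 11.95 CPM against 5.60 CPM. Azin1, which protects ornithine decarboxylase from degradation, rose with LPS by 0.81 ± 0.0428, and its interaction was -0.48 ± 0.0603 (adjusted p = 1.11e-05). The third was Sat1, a polyamine acetyltransferase, at -0.21 ± 0.0534 (adjusted p = 0.0101). Thus 1 of 23 genes passed above 0 and 2 below 0, beside 9.54% and 8.44% of all genes. The median was -0.01 beside 0.03 over all genes.

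Of 15 other genes of nitric oxide and tetrahydrobiopterin biology 8 were tested. LPS gave 1 higher and 3 lower with and without JSH-23. Of all genes, 31.0% were higher and 34.7% lower without JSH-23, and 27.4% and 27.1% with it. The medians were -0.11 and -0.30 beside -0.05 and -0.02 over all genes (log2). Nosip, which encodes a nitric oxide synthase-interacting protein, fell by a log2 change of -0.63 ± 0.0704 (SE) without JSH-23 (adjusted p = 9.09e-08) and -0.55 ± 0.07 with it. Pts, the second enzyme of tetrahydrobiopterin synthesis, fell by -0.41 ± 0.0741 and -0.38 ± 0.0741, whereas Gch1, the first, rose. Nostrin, a nitric oxide synthase trafficking protein, rose by 0.26 and 0.31. JSH-23 raised Spr, which catalyses the last step, by 0.20 ± 0.0536 without LPS, the 1 gene that passed. Under LPS Spr rose by 0.25 ± 0.0558, and Qdpr, which recycles the cofactor, fell by -0.19 ± 0.0542. Of all genes, 18.8% were higher and 22.1% lower with JSH-23 without LPS, and 24.5% and 24.2% under LPS. The interaction nearest the threshold was that of Qdpr, at -0.21 (adjusted p = 0.0605).

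The 27 other genes around itaconate, of the citric acid cycle, its transporters and itaconate breakdown, were all tested, and none changed past 2-fold. LPS gave 9 higher and 9 lower without JSH-23 and 8 and 8 with it, beside 31.0% and 34.7%, and 27.4% and 27.1%, of all genes. Idh1, cytosolic isocitrate dehydrogenase, fell by a log2 change of -0.85 ± 0.0486 (SE) and -0.84 ± 0.0492. Dld rose by 0.80 ± 0.0427 and 0.67 ± 0.0429 and Dlst by 0.48 and 0.43, both encoding parts of the oxoglutarate dehydrogenase complex. The mitochondrial citrate carrier Slc25a1 rose by 0.55 without JSH-23 and 0.37 with it. With JSH-23, 16 were lower and 1 higher under LPS, with a median of -0.15 beside 0.02 over all genes, of which 24.2% were lower and 24.5% higher. Without LPS 12 were lower and 2 higher, with a median of -0.12 beside -0.01, and 22.1% of all genes were lower and 18.8% higher. The examples under LPS were citrate synthase Cs at -0.44 ± 0.0329 (adjusted p = 3.14e-10), ATP citrate lyase Acly at -0.35 ± 0.0386 and Idh3a at -0.34 ± 0.0715. Without LPS they were Idh2 at -0.46 ± 0.0846, the dicarboxylate carrier Slc25a10 at -0.34 ± 0.0517 and Idh3a at -0.28 ± 0.0665. Cs and Acly also passed the interaction, both below 0, at -0.25 (adjusted p = 0.000755) and -0.16 (adjusted p = 0.0447). Of all genes, 8.44% passed below 0 and 9.54% above 0.

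The 16 other superoxide and peroxide genes were tested beside Sod2. LPS gave 8 higher and 6 lower without JSH-23, beside 31.0% and 34.7% of all genes, with a median of 0.05 beside -0.05 over all genes (log2). With JSH-23 it gave 4 higher and 5 lower, beside 27.4% and 27.1%, with a median of 0.01 beside -0.02. Ncf1, a cytosolic subunit of the phagocyte NADPH oxidase, rose by a log2 change of 0.91 ± 0.0317 (SE, adjusted p = 3.36e-16) and 0.72 ± 0.0317, and the catalytic subunit Cybb rose by 0.39 ± 0.0359 and 0.53 ± 0.036. Prdx5, a peroxiredoxin, rose by 0.42 without JSH-23 and 0.27 with it. Gpx1, a glutathione peroxidase, fell by -0.38 without JSH-23 and -0.45 with it. JSH-23 gave 4 higher and 6 lower under LPS, beside 24.5% and 24.2% of all genes, and 6 higher and 6 lower without, beside 18.8% and 22.1%. Catalase (Cat) was higher by 0.72 ± 0.035 under LPS and 0.58 ± 0.0345 without. The oxidase genes Ncf4 and Rac2 were lower, by -0.95 ± 0.045 and -0.82 ± 0.0399 under LPS and by -0.84 ± 0.0441 and -0.59 ± 0.0395 without. Ncf1 and Rac2 passed the interaction, at -0.20 (adjusted p = 0.00397) and -0.22 (adjusted p = 0.00837), beside 8.44% of all genes below 0 and 9.54% above 0.

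**Figure D5:**
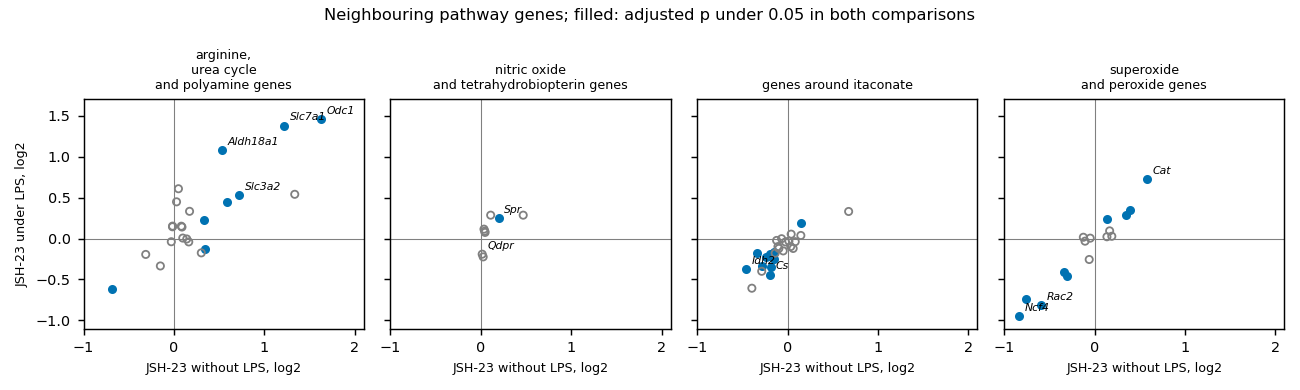
Log2 change with JSH-23 without LPS (x axis) against that under LPS (y axis) for the tested genes of 4 lists, 1 point per gene and 1 panel per list. Filled points passed an adjusted p under 0.05 in both comparisons. Odc1, Slc7a1 and Aldh18a1 stand at the upper right, Ncf4 and Rac2 at the lower left, and the itaconate genes lie mostly below 0 on both axes.

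Because Arg1 belongs to the alternative activation programme, other genes of that programme were counted, and 11 of 12 were tested. LPS gave 4 higher and 4 lower without JSH-23 and 3 and 3 with it, near the shares of all genes (31.0% and 34.7%, 27.4% and 27.1%). The chemokine genes Ccl17 and Ccl22 rose by log2 changes of 1.33 ± 0.0555 (SE) and 1.08 ± 0.0344, and the transcription factor gene Irf4 by 1.41 ± 0.0528. With JSH-23 they rose by 0.88, 0.80 and 1.23. The 4 that fell without JSH-23 were Pparg at -1.60 ± 0.208, past 2-fold, Il4ra at -0.26, Mrc1 at -0.21 and Mgl2 at -0.11. Pparg also fell with JSH-23 present, by -1.53 ± 0.207. JSH-23 under LPS gave 4 higher, among them Clec10a at 0.565 and the mannose receptor gene Mrc1 at 0.32. It gave 3 lower, among them Ccl17 at -0.61 and Ccl22 at -0.38. Without LPS it gave 3 higher, Clec10a at 0.962, Irf4 at 0.19 and the lectin gene Mgl2 at 0.16. The 2 lower included Ccl17 at -0.16. Over all genes the shares higher and lower with JSH-23 were 24.5% and 24.2% under LPS, and 18.8% and 22.1% without. The interaction passed above 0 for 2, with Mrc1 at 0.30, and below 0 for 2, Ccl17 at -0.45 and Ccl22 at -0.28. Its shares over all genes were 9.54% above 0 and 8.44% below 0. Levels in this list ran from Retnla, as low as Arg1 at 0.155 to 0.346 mean CPM over the 4 groups, through Pparg at 1.04 to 3.24 and Clec10a at 1.57 to 3.27, to Ccl22 at 5877 to 13270. These levels, the changes of Clec10a and the genes that fell with LPS were picked out after the values were seen.

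Marker genes of other cells moved with JSH-23 as well, where 24.2% of all genes were lower and 24.5% higher under LPS, and 22.1% and 18.8% without. Of 10 macrophage markers tested, 8 were lower and 1 higher under LPS, and 8 were lower without LPS, with medians of -0.68 and -0.58 beside 0.02 and -0.01 over all genes (log2). Fcgr1, an Fc receptor gene, changed by -1.40 ± 0.0678 (SE) and -1.31 ± 0.0619. All 8 neutrophil markers tested were lower under LPS with a median of -0.37, and 3 were lower without LPS. Of 10 dendritic cell markers, 8 were lower and 1 higher under LPS with a median of -0.19, and 5 were lower and 1 higher without. The part of these shifts in the changes of Acod1, Nos2, Gch1 and Sod2 with JSH-23 was not tested.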

How the data were processed

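Bulk RNA-seq of 12 libraries was used, 3 per group by the titles. Per the labels and the study's methods, the authors trimmed reads with Trim Galore, aligned them to mm10 with STAR (2.6.0c in the submitters' processing notes) and estimated genes with RSEM. The GENCODE release and strand setting are not given in the sources used here, and the labels and methods name different RNA selection kits. The deposited expected counts were not normalized. The deposited TPM are the authors' length-corrected abundances per library, and the deposited length is the mean transcript length that RSEM weights by abundance. Symbols and positions are from GENCODE M21 (GRCm38, the mm10 build), which held 55154 of 55335 identifiers.

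Expected counts were rounded, filtered with filterByExpr (14357 genes) and tested in edgeR 4.0.16 (R 4.3.3) with TMM scaling and a quasi-likelihood F-test over all libraries, with 1 mean per group and 8 residual degrees of freedom. Tests were two-sided with Benjamini-Hochberg adjustment over all genes. SE is the absolute log2 change divided by the square root of F. Calls required an adjusted p under 0.05 and more than 2-fold, or the adjusted p alone for the interaction. Alternatives were DESeq2 1.42.0, other scalings, other filters, limma 3.58.1 on log2(TPM + 1) or log2(TPM + 0.1), a replicate block and leaving out each library. The procedure was tested on simulated counts. Totals of 24664724 to 34837847 counts per library set the counting precision. All 8 genes are named. From other lists, up to 3 genes per comparison with the largest absolute change past the threshold and at least 10 CPM are named. For each member the 2 protein-coding genes of highest correlation outside the members are also named. Members and lists were chosen with earlier results of these data known.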

Additional observations from a re-analysis of the deposited data

Results flagged for a closer look

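The LPS change differed with JSH-23 for 3 of the genes by the interaction test of edgeR (adjusted over 14357 genes). For Nos2 the log2 difference was -0.76, with the LPS change smaller when JSH-23 was present (adjusted p = 0.000162). For Slc7a2 it was -0.52 (adjusted p = 3.19e-06), with JSH-23 also raising the unstimulated level. For Acod1 it was -0.23 (adjusted p = 0.00473), and this one missed the threshold in limma on log2(TPM + 1), at an adjusted p of 0.218. No group held 4 or more libraries, so no single value was tested for standing far from its group. WTL + JSH23 replicate 3 differed more from the other libraries of its group than any other replicate did, and without it 6 interactions passed.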

How the results depend on the processing

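No value that passed its threshold changed sign under any alternative run, and the interaction of Ass1, which did not pass, was at 0.01 in limma on log2(TPM + 1). Under LPS, JSH-23 gave 7 genes in place of 0, and without LPS 6 in place of 1, once the fold requirement was dropped. The interaction passed for 6 genes with DESeq2, for 6 with its size factors in edgeR, for none (0) past 2-fold, and for 3 to 6 when each library was left out in turn, against 3. With limma on log2(TPM + 1), 4 genes passed 2-fold with LPS with or without JSH-23, and the median of all genes moved to -0.26 from -0.05 (log2) for LPS without JSH-23. Without WT replicate 4, LPS called 5 genes in place of 6. With upper quartile scaling it called 5 without JSH-23 (Sod2 lost) and 4 with it (Gch1 lost). Over all genes, 1370 interactions passed above 0 and 1212 below 0, against 1150 above 0 of 2624 with DESeq2 size factors and 1400 of 1762 with log2(TPM + 1). For JSH-23 under LPS, 585 of 896 calls were higher with log2(TPM + 0.1), against 538 higher and 467 lower.

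With the replicate block, which is possible for the LPS comparisons and the interaction, 5 interactions passed, with Arg2 (adjusted p = 0.0197) and Gch1 (adjusted p = 0.0227) added to the 3. Same-numbered libraries deviated together with r of 0.00229 to 0.0569, against -0.0444 to 0.0257 for other pairs. Of 12 libraries, 9 correlated best with their own number. The numbers alone do not say whether such libraries shared a culture. The JSH-23 comparisons share no replicate numbers. Depth limits Arg1, and the WT level of Arg2, most.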
